A study of Bos taurus with 23 samples.

Results

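Primary bovine umbilical cord cells whose library names carried the letters WJ were compared with those carrying the letters BUC, all after 50 days in culture. These made up 6 of the 23 libraries of the series, 3 WJ and 3 BUC, and each was put in its group by its library name. Both groups are labelled as mesenchymal stem cells in primary culture from Holstein cattle, grown without treatment in low-glucose medium with fetal bovine serum. Each group held 1 library with P number 10, 1 with 15 and 1 with 18. The name of the WJ library with P number 18 also ended in F, and at 12 days 1 WJ name also read Male and the BUC name Mix. For context, 3 primary libraries after 12 days (2 WJ, 1 BUC) and 14 libraries of 1 line made from WJ cells by transient transfection with the SV40 large T antigen, a viral protein that inactivates p53 and the retinoblastoma protein, were read at the same genes. The line was sampled after 21 days, in 5 libraries with AM and 4 with FBS in their names, and after 165 days, in 5 libraries, and the labels do not say what AM and FBS mark in these names. The sample titles begin with the same letters, pBUC, for both groups, and the labels spell out neither WJ, BUC nor the P number. They do not say which animals or cultures the libraries came from, so source within the cord, animal and culture cannot be told apart between WJ and BUC. The replicate error behind each p-value is that between single libraries and may be technical in part.

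Mesenchymal stem cells of the cord are adherent stromal cells that grow out from its connective tissue and vessel surroundings. They secrete extracellular matrix, can be driven towards fat, bone or cartilage fates, and are passaged for a limited time before growth slows. Cultures started from different donors or parts of the cord, and cultures carried through many passages, are commonly reported to differ in expression.

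Genes were identified by Ensembl numbers, and the tables used here pair none of them with a symbol. Marker genes of mesenchymal stem cells or of other cell types could therefore not be checked, and genes are described by number, level and size of difference. In bulk RNA, fewer cells of a type and less RNA per cell cannot be told apart. Total counts per library were 3980920, 2421508 and 1840606 in WJ and 3743953, 4660427 and 5920394 in BUC, each at P numbers 10, 15 and 18. Depth was thus close at P number 10 and lower in WJ at 15 and 18. At an equal depth of 1840606 counts, 11546 ± 19.7 genes had at least 1 count in WJ and 11550 ± 218 in BUC (SD, n = 3 each). The difference in detected genes was smaller than the spread in BUC (two-sided exact permutation p = 1, adjusted p = 1 over 3 library measures). The top 100 genes by count held 38.1% ± 1.75 of all counts in WJ and 36.1% ± 0.954 in BUC (SD, n = 3 each; two-sided exact permutation p = 0.2, adjusted p = 0.3). Of these 3 against 3 tests the smallest p possible is 0.1.

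The name was the main axis of variation among the 6 libraries. The first principal component held 73.1% of the variance and put the WJ libraries at 42.2 to 50.1 and the BUC libraries at -48.6 to -44.1. The second held 9.15% and did not separate the names. At equal depth Spearman's rho across genes averaged 0.931 between WJ and BUC libraries, with a range from 0.927 to 0.934. It was 0.96 to 0.963 among the WJ and 0.959 to 0.961 among the BUC libraries, so every pair within a name was more alike than every pair across names. The biological coefficient of variation, the spread beyond counting error, was 16% within WJ and 18.7% within BUC, against 29.6% when the 6 libraries were taken as 1 group. The most abundant genes were largely shared. Single WJ and BUC libraries had 81 to 85 of their 100 most abundant genes in common, against 91 to 96 for pairs of WJ and 89 to 94 for pairs of BUC libraries.

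WJ and BUC cells differed in 24.3% of the genes tested, and large differences were more often towards a lower level in WJ than in BUC. Of 9075 genes tested with edgeR's quasi-likelihood test (Benjamini-Hochberg adjusted p under 0.05), 970 were higher and 1231 lower in WJ, which is 10.7% and 13.6%. The log2 fold change of WJ over BUC had a median of 0.96 in the higher genes, -1.2 in the lower genes and 0.01 over all genes tested. The 2 groups did not overlap in 3736 genes, 41.2% of those tested, with WJ the higher in 1807 (19.9%) and the lower in 1929 (21.3%). Among genes that passed the test, the groups did not overlap in 961 of the 970 higher and 1216 of the 1231 lower ones. Of the genes that passed, 458 were higher and 741 lower by 2-fold or more, 162 and 340 by 4-fold or more, and 31 and 62 by 32-fold or more. The surplus of lower genes depended on the scaling, since library totals in place of TMM gave 1125 higher and 1108 lower genes. At 8-fold or more it was present under both, with 82 higher and 187 lower genes by TMM and 84 and 181 by library totals. Without the WJ library at P number 10, 638 genes were higher and 956 lower in WJ. With all 6 libraries thinned to the same depth, 782 were higher and 1044 lower.

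**Figure D1:**
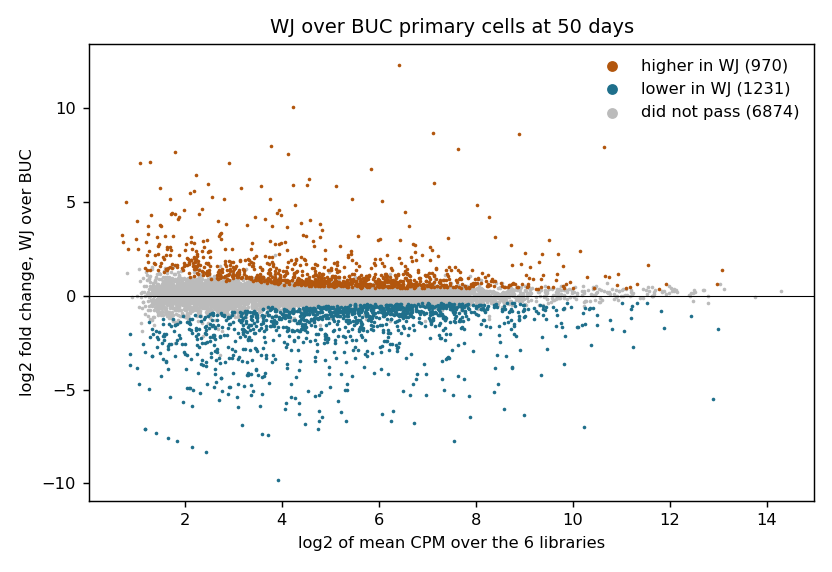
Log2 fold change of WJ over BUC at 50 days (vertical axis) against the log2 mean level in CPM over the 6 libraries (horizontal axis), 1 point per gene. The 970 genes higher in WJ and the 1231 lower ones lie at all levels of abundance, and the lower ones reach large differences more often.

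The difference ran through all levels of abundance. Levels are given as CPM, counts divided by the TMM-scaled library size and set to a common total. Of the 100 most abundant genes, at a mean of 1505 CPM or more, 13 were higher and 15 lower in WJ, 28% of them. Of the next 900 genes, 112 were higher and 201 lower, 34.8% of them, and of the remaining 8075 genes 845 were higher and 1015 lower, 23%. At least 4-fold differences made up 3% of the 100 most abundant genes, 5.67% of the next 900 and 5.55% of the rest. The median log2 fold change in these 3 bands was 0.18, -0.05 and 0.02.

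The genes that differed held a sizeable part of all transcripts. The 970 genes higher in WJ took 15.7%, 15.8% and 17.3% of the counts of the WJ libraries at P numbers 10, 15 and 18, against 8.17%, 8.03% and 8.11% of those of the BUC libraries. The 1231 genes lower in WJ took 10.7%, 10.8% and 9.87% of the counts in WJ, against 23.3%, 26.3% and 24.3% in BUC. These shares follow from how the genes were chosen and carry no test. The genes lower in WJ thus held more of each BUC library than the genes higher in WJ held of any WJ library.

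For the 82 genes at least 8-fold higher and the 187 at least 8-fold lower in WJ, the abundant side was examined. The level on the higher side had a median of 19.3 CPM, with a range from 2.97 to 3183 CPM, for the genes higher in WJ. For the genes lower in WJ it had a median of 24.2 CPM in BUC, with a range from 3.34 to 14861 CPM. Over 100 CPM were reached by 15 of the 82 genes in WJ and by 45 of the 187 genes in BUC, 18.3% and 24.1% of them. Over all genes tested the shares were 17.4% in WJ and 18.4% in BUC, so abundant genes were about as common among the genes higher in WJ as elsewhere. The 3 libraries on the higher side were within 2-fold of each other in 41 of the 82 and in 100 of the 187 genes, and over 4-fold apart in 11 and 24. How many genes reach 8-fold depended on the fit, with 133 higher and 265 lower by DESeq2 and 154 and 292 without a filter on low counts.

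Few genes were read in one name and not at all in the other. No count in the 3 BUC libraries and a mean of at least 5 CPM in WJ was found in 3 genes, and the reverse, no count in the 3 WJ libraries and at least 5 CPM in BUC, in 6 genes. All 9 passed the test, which restates how they were picked. In each set 1 gene reached 5 CPM in all 3 libraries. A count of 0 allows a level of up to 0.364 CPM over the 3 WJ libraries, with 8243034 counts in all, and up to 0.209 CPM over the 3 BUC libraries, with 14324774, counting error only. At 12 days 1 of the 3 and 5 of the 6 had a count in at least 1 library. That bound is low in libraries of 8954270 to 15486372 counts, and its share over all genes tested was not taken.

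The genes with the largest fitted differences among those of at least 10 CPM in one group were of this kind. Ranking by fitted fold change favours genes with no count on one side, since their lower level was not measured. ENSBTAG00000016646 was at 67.9, 237 and 211 CPM in WJ at P numbers 10, 15 and 18, from 282, 588 and 378 counts, and had no count in any BUC library at 50 days. The pooled level was at least 723-fold higher in WJ, with 3 counts over the 3 BUC libraries together as the floor and unscaled totals (edgeR adjusted p = 0.000169). It had the largest fitted difference of the 808 genes higher in WJ that met the rule for naming. At 12 days it was low and alike in both names, with 23 and 36 counts in the WJ libraries and 20 in the BUC library. In the line it had 2 counts in the 9 libraries at 21 days and 20 in the 5 at 165 days.

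ENSBTAG00000027516 was at 4.57, 62.9 and 45.2 CPM in WJ, from 19, 156 and 81 counts, and had none in BUC. The pooled level was at least 148-fold higher in WJ, with the same floor (edgeR adjusted p = 0.00543). The WJ library at P number 10 was far below the other two for this gene. No count was found in the 3 libraries at 12 days. At 21 days the line had 6 counts in the AM and none in the FBS libraries, and at 165 days it had 58, 62 and 38 counts in replicates 3 to 5 and none in replicates 1 and 2.

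Among the genes lower in WJ, ENSBTAG00000054278 had no count in WJ and was at 7.45, 60.7 and 22.2 CPM in BUC at P numbers 10, 15 and 18, from 28, 279 and 125 counts. The pooled level was at least 82.9-fold lower in WJ, with 3 counts over the 3 WJ libraries as the floor (edgeR adjusted p = 0.00638). ENSBTAG00000001687 likewise had no count in WJ and was at 3.46, 22.4 and 6.58 CPM in BUC, from 13, 103 and 37 counts. Its pooled level was at least 29.3-fold lower in WJ (edgeR adjusted p = 0.0113). Both were uneven within BUC and highest at P number 15. At 12 days the first had 0 and 1 counts in WJ and 1 in BUC, and the second had 3 and 6 in WJ and 1 in BUC. Both were high in replicates 1 and 2 of the 165-day line, with 687 and 359 counts of the first and 179 and 101 of the second. The other 3 libraries at 165 days held 42 to 50 counts of the first and 3 to 5 of the second. All 4 named genes passed the test in every alternative fit that tested them, with edgeR, DESeq2 or limma adjusted p from 1.62e-15 to 0.0364. Those leaving out a library were included, and 2 of the genes were too low to be tested after thinning. The fits reuse the counts on which the genes were picked, so passing them mostly restates that choice.

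**Figure D2:**
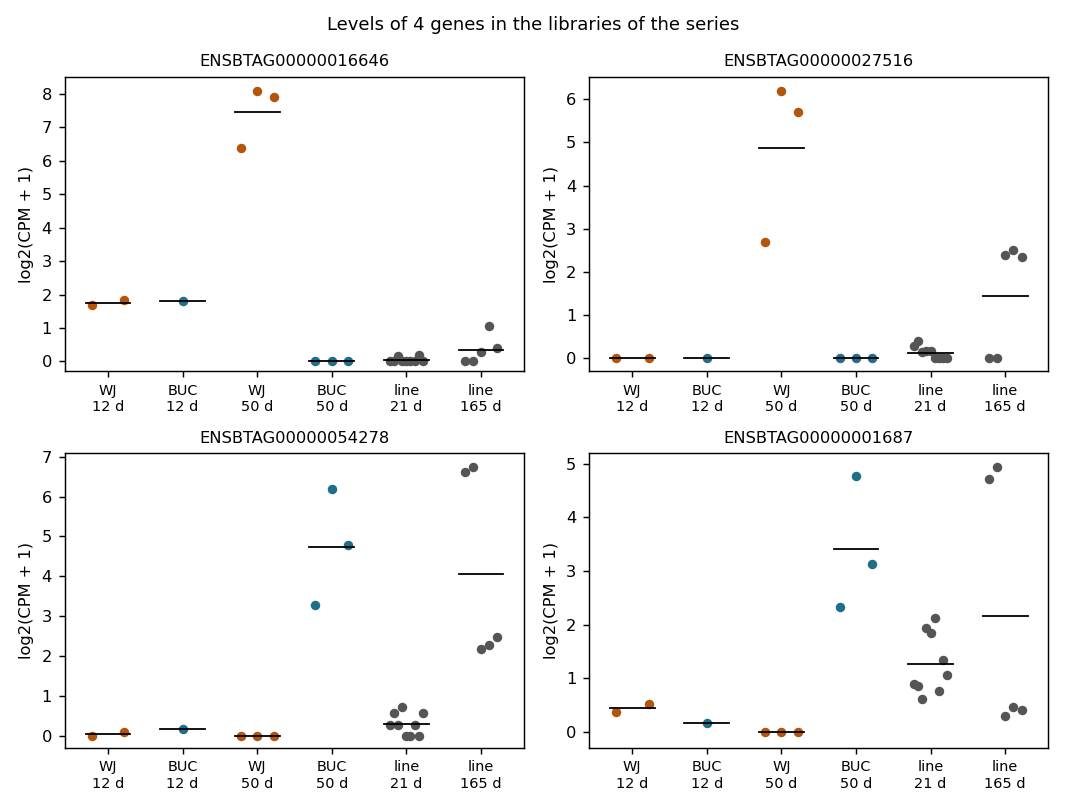
Levels of the 4 named genes, as log2 of CPM plus 1 on TMM-scaled sizes of all 23 libraries (vertical axes), in the primary libraries at 12 and 50 days and in the line. Each point is a library and each bar a mean of the plotted values. The 2 upper genes are present at 50 days in WJ and at 0 in BUC, the 2 lower genes the reverse.

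The P number left a smaller mark on expression than the name. With the name in the model, the slope on the P number passed edgeR's test in 0 of 9075 genes, 0% of those tested, with a smallest adjusted p of 0.0924. At an unadjusted p under 0.05 there were 659 genes for the slope and 3269 for the name. Where nothing differs, a share of about 0.05 of the 9075 genes would still be under that bound. DESeq2, which tested 5451 genes after its own filter, called 49 for the slope. In edgeR's test 11 genes passed without the WJ library at P number 10, and 7, 2 and 3 without the BUC library at P number 10, 15 or 18. The 3 P numbers give few degrees of freedom for a slope.

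WJ and BUC were about equally far apart at each P number. At equal depth 17.4% of the genes differed by at least 2-fold between the WJ and the BUC library at P number 10, 18.8% at 15 and 18.5% at 18. The median absolute log2 ratio over all genes was 0.41, 0.44 and 0.44. Of the 970 genes higher in WJ, 416, 426 and 455 were at least 2-fold higher at P numbers 10, 15 and 18, and 230 at all of them. Of the 1231 lower genes, 683, 706 and 710 were at least 2-fold lower, and 461 at all of them. These genes were chosen on the same libraries, so these counts describe how even the difference was and carry no test. Among the 82 genes at least 8-fold higher in WJ, the WJ library at P number 10 was the lowest of the 3 in 39, 47.6%, against 30% of all genes. Among the 187 genes at least 8-fold lower in WJ, the BUC library at P number 15 was the highest of the 3 in 81, 43.3%, against 33.7% of all genes.

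**Figure D3:**
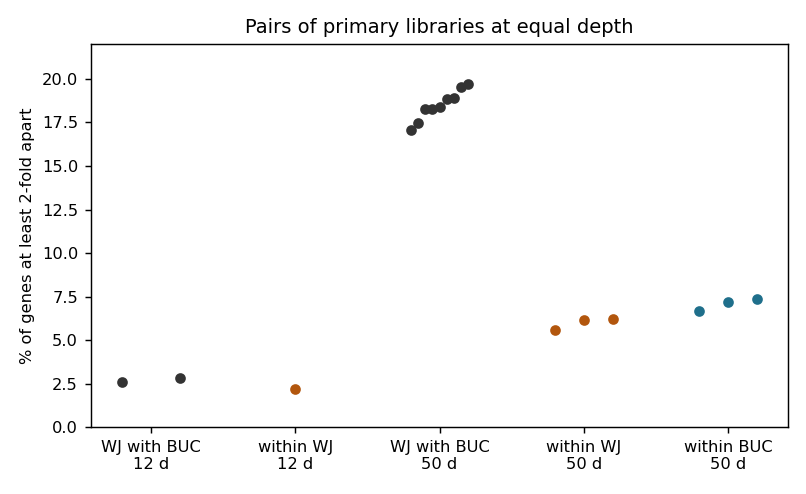
Percentage of 9075 genes at least 2-fold apart (vertical axis) between 2 primary libraries of the same culture time, with all libraries thinned to 1840606 counts. Each point is a pair. Pairs of WJ with BUC lie at 17% to 19.7% at 50 days, above the pairs within a name, and at 2.61% and 2.81% at 12 days.

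At 12 days the same contrast called few genes. The 9 primary libraries were fitted in 4 groups, and the lone BUC library at 12 days was assumed to vary like the others. The biological coefficient of variation of the 3 libraries at 12 days, taken as 1 group, was 6.88%, below the values within WJ and BUC at 50 days, so the shared spread does not match the 12-day libraries. The contrast also sets 2 libraries against 1 at 12 days and 3 against 3 at 50 days, so the counts of genes called at the 2 times are not on an equal footing. In this fit 2 of 10557 genes differed between WJ and BUC at 12 days, 0.0189% of those tested, against 2828 at 50 days, 26.8%. At an unadjusted p under 0.05 there were 69 at 12 days. With the wider shared spread this contrast can miss genes at 12 days, so few calls do not show that the names were alike. Among the 6822 genes with a mean of at least 10 CPM, 38 were at least 2-fold apart at 12 days and 809 at 50 days, and at least 8-fold apart were 6 and 141. At equal depth the 2 WJ libraries at 12 days were at least 2-fold from the BUC library in 2.61% and 2.81% of genes, and from each other in 2.2%. At 50 days WJ and BUC libraries were that far apart in 17% to 19.7%, against 5.56% to 6.25% within WJ and 6.69% to 7.37% within BUC. The 12-day libraries were deeper, with 8954270 to 15486372 counts.

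The 2 genes called at 12 days were both lower in WJ, and are named because they were so few, after their values were seen. ENSBTAG00000054894 had no count in the WJ libraries at 12 days and 275 in the BUC library, and no count in any of the 6 libraries at 50 days (edgeR adjusted p = 0.0327). ENSBTAG00000053219 had 4 and 9 counts in WJ and 129 in BUC at 12 days, and 2 to 8 counts in WJ and 6 to 11 in BUC at 50 days (edgeR adjusted p = 0.0144). Of the 9 primary libraries 1 was thus high for both. Without either of the WJ libraries at 12 days, no gene passed.

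Whether the contrast itself differed between the times was tested in the same fit. The difference of WJ over BUC at 50 days minus that at 12 days passed in 740 genes, 7.01% of those tested, with 279 positive (2.64%) and 461 negative (4.37%). Of these, 130 and 230 had a difference of at least 4-fold. The count fell to 317 without the WJ library of P number 3 and to 281 without that of P number 4, the 2 WJ libraries at 12 days. Genes with no count at 12 days could not pass, since their contrast at that time was not measured. The 740 genes thus leave them out. For example, ENSBTAG00000027516 had a fitted difference of 11 with a standard error of 44151. Of the 2828 genes called at 50 days in this fit, 1313 had the same sign at 12 days. The same was not counted over all genes tested, so this number has no background beside it. Genes with no count at 12 days had a fitted difference of 0 there and thus no sign to share. The median log2 fold change of the 2828 genes at 12 days, taken in the direction of the 50-day difference, was -0.01. Their median absolute value at 50 days was 1.04. Both measures at 50 days use the libraries that chose these genes. The 12-day cultures are not stated to be the same ones as those sampled at 50 days, so culture time and source cannot be told apart here. ENSBTAG00000016646 was among the genes whose contrast differed between times (edgeR adjusted p = 0.008).

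**Figure D4:**
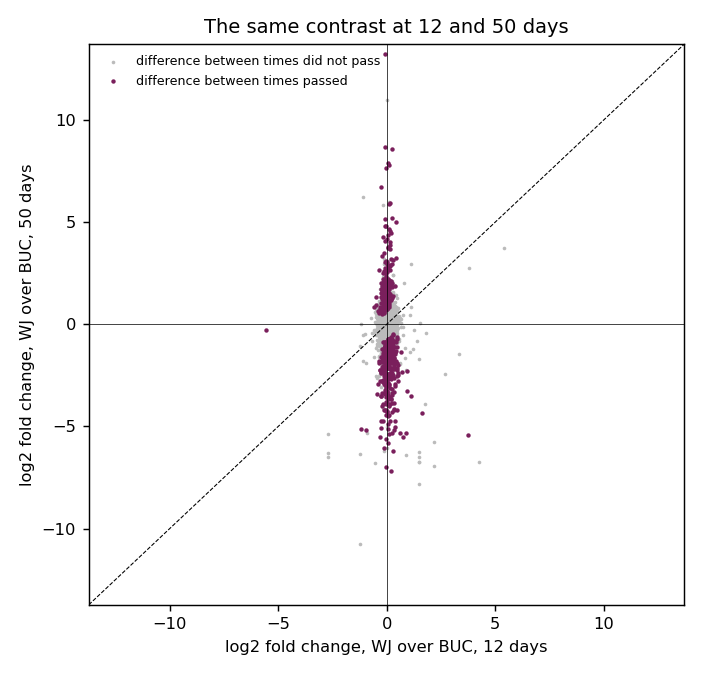
Log2 fold change of WJ over BUC at 50 days (vertical axis) against that at 12 days (horizontal axis) in the fit of 9 primary libraries, for the 6822 genes with a mean of at least 10 CPM. Dark points passed the test of the difference between the times, and the dashed line marks equal values. The points spread along the 50-day axis and most stay near 0 on the 12-day axis. At 12 days 38 genes are at least 2-fold apart and 6 at least 8-fold.

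At 50 days WJ was nearer than BUC to the 12-day libraries of either name. Spearman's rho with the 12-day libraries of both names was 0.921 to 0.934 for WJ and 0.901 to 0.906 for BUC at equal depth. The mean 12-day level was nearer the WJ than the BUC mean in 648 of the 970 genes higher in WJ, 66.8%, and in 948 of the 1231 lower genes, 77%, against 61.7% of all genes tested. For genes higher in WJ, the 12-day level lay above both 50-day means in 413, between them in 376 and below both in 181, which is 42.6%, 38.8% and 18.7%. For genes lower in WJ, it lay above both in 112, between them in 469 and below both in 650, which is 9.1%, 38.1% and 52.8%. Over all genes tested the shares were 39.2% above both, 21.8% between and 39% below both. The share above both among the higher genes was thus near that of all genes. Of the 187 genes at least 8-fold lower in WJ, 150 had their 12-day level nearer WJ, 80.2%. Of the 82 at least 8-fold higher ones it was 42, 51.2%, which is below the 61.7% of all genes tested. The WJ and BUC libraries at 12 days gave nearly the same shares, with 66.5% to 67.1% of the higher and 76.7% to 76.8% of the lower genes nearer WJ. With library totals in place of TMM the means over the 3 libraries were 73.6% and 69.4%, against 66.7% and 76.8% with TMM.

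The immortalized line, which descends from WJ cells, was nearer to WJ in little more than the share of all genes. Of the 2201 genes that differed, 57.1% ± 3.03 (SD, n = 9) were nearer the WJ mean after 21 days of the line, and 55.7% ± 3.42 (SD, n = 5) after 165 days. At 21 days the FBS libraries were split, with 61.6% and 62.2% in replicates 2 and 4, against 53.2% and 53.9% in replicates 1 and 3, and the AM libraries lay between them at 56.1% to 57.2%. The 21-day mean without FBS replicates 2 and 4 was 55.7%. Over all genes tested the share was 53.5% ± 1.53 at 21 days and 51.6% ± 1.3 at 165 days. At 165 days replicates 1 and 2, with 51.3% and 52.6%, stood below the other 3 libraries, and the mean without them was 58.1%. The share differed by direction, with 48.5% ± 2 of the higher and 63.9% ± 4.01 of the lower genes nearer WJ at 21 days (SD, n = 9 each). Of the lower genes 70.5% and 70.8% were nearer WJ in FBS replicates 2 and 4, and without these the mean was 62%. With library totals in place of TMM the shares of all 9 libraries were 61.4% of the higher and 49.5% of the lower genes, so the order of the directions turned round with the scaling. At 165 days the shares were 50.6% ± 2.63 and 59.7% ± 4.1 (SD, n = 5 each). The libraries of the line come from 1 line and carry no test here.

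**Figure D5:**
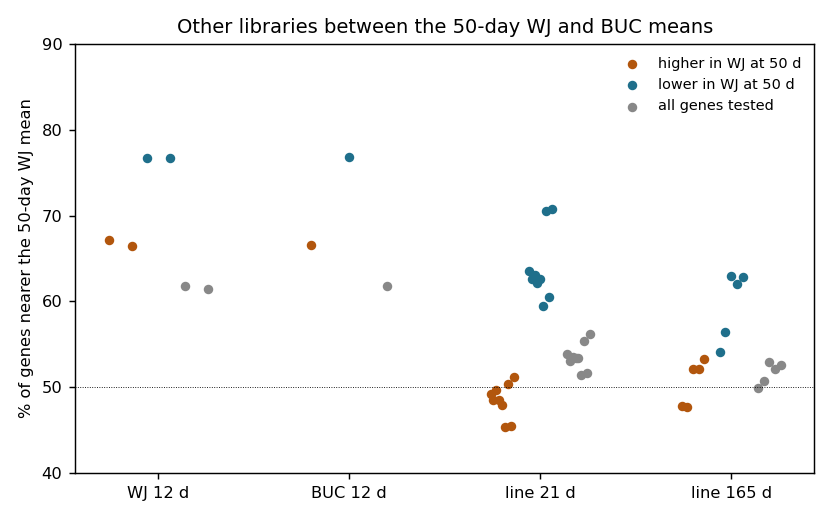
Percentage of genes whose level in a library was nearer the 50-day WJ mean than the 50-day BUC mean (vertical axis, from 40% to 90%), for genes higher in WJ, lower in WJ and all genes tested. Each point is a library, and the dotted line marks 50%. Libraries at 12 days of both names coincide, while those of the line lie lower and spread more.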

How the data were processed

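Libraries were made by bulk MARS-Seq, which tags the 3′ ends of poly(A) transcripts, and sequenced single-read on a NovaSeq, as the labels' protocols state. The submitters' processing notes name cutadapt, STAR, HTSeq, DESeq and the build ARS-UCD1.2. The sources used here do not give tool versions, annotation, strand use or the handling of molecular identifiers. The authors deposited raw whole-number counts for 16094 Ensembl gene IDs in 23 columns, each matched to a sample by its title. Overlapping genes and near-identical copies may share counts.

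Groups were taken from the library names. The libraries, lists and tests were chosen with earlier results of these data known. The planned gene and marker lists could not be run because no ID matched a symbol, and named genes were the 2 largest log2 fold changes in each direction among genes that passed the test, with at least 10 CPM on the higher side and no overlap between groups. Tests used edgeR 4.0.16 in R 4.3.3 (TMM, filterByExpr, estimateDisp, glmQLFit, glmQLFTest) with Benjamini-Hochberg adjustment, and were first tested on simulated data. WJ against BUC at 50 days and the P slope used 6 libraries, the 12-day contrast and the difference between times 9. Standard errors came from the F statistic. Principal components and nearness used log2 CPM with a prior count of 2, nearness with TMM over the 9 primary libraries for 12 days and over the 6 and the 14 of the line otherwise. Thinning was without replacement to 1840606 counts. Alternatives were RLE, library totals, other filters, DESeq2 1.42.0, limma 3.58.1 voom, glmTreat, a replicate block, thinning and leaving out each library. No 2 libraries of a group agreed within counting noise (smallest chi-square per degree of freedom 6.66). Floors cover counting error only.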

Additional observations from a re-analysis of the deposited data

Results flagged for a closer look

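The contrast of WJ over BUC differed between culture times in 740 genes by the interaction test of the 4-group edgeR fit, and this stood out because the 12-day contrast itself called 2 genes. The 12-day side rests on 1 BUC and 2 WJ libraries. ENSBTAG00000016646 was the named gene that passed this test, with a fitted difference of log2 fold changes of 13.3, standard error 2.13 (edgeR adjusted p = 0.008). That value depends on the prior count, since the BUC libraries at 50 days held no count of the gene. ENSBTAG00000027516 had no count at 12 days and so could not pass. The named genes lower in WJ had at most 6 counts in any 12-day library, which limits the test for them. In 12 checks for a single library far from the rest of the line, over the named genes and the nearness shares, 0 were found. Such checks do not look for libraries that stand apart in pairs. Replicates 1 and 2 at 165 days and FBS replicates 2 and 4 at 21 days did so, as given above.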

How the results depend on the processing

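The 50-day count of 2201 genes stayed within 1.5 times under every alternative but one: glmTreat against a fold of 1.5 called 947, with 331 higher and 616 lower. Leaving out each library gave 1594 to 2079, and no gene called in both fits changed sign in any alternative. The slope on the P number called 34 genes without a filter, 49 with DESeq2 and 0 to 11 when leaving out each library. The 12-day contrast called 6 without a filter and 0 to 3 when leaving out each library that could be spared. The difference between times called 281 to 819 genes when leaving out each such library, 898 with DESeq2 and 1049 without a filter. The lone BUC library at 12 days could not be left out.

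With the replicate block on the P number 2037 genes were called at 50 days, 1941 of them also without it. Deviations of same-numbered WJ and BUC libraries correlated at 0.05, -0.11 and 0.13, and not every library correlated best with its own number. With 3 libraries in each group this cannot settle whether the numbers pair libraries. The main fit had no block.

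All alternatives for nearness, left-out libraries included, were added after the data were seen. With library totals, 12-day nearness to WJ was 71.3% over all called genes, 73.6% over the higher and 69.4% over the lower ones, and with RLE 77.1% over the lower ones. In the 21-day line the share of higher genes was 46.3% with RLE and 61.4% with library totals, and that of lower genes 49.5% with library totals. The cause was not tested. Low counts limit the on-off genes most in WJ, where depth was lowest.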
